A study of Mus musculus with 10 samples.

Results

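Transcripts of 10 genes that arrest the cell cycle, act in the p53 pathway or mark the senescent nucleus were followed in the kidneys of old mice. The genes were chosen by symbol: the CDK inhibitors Cdkn1a, Cdkn1b, Cdkn1c and Cdkn2c, the tumor suppressor Trp53 with its targets Mdm2 and Ccng1, cyclin D1 (Ccnd1), Rb1 and the lamin B1 gene Lmnb1. All 10 were among the 13299 genes of the table, and all 10 passed a filter on low values (a normalized count of at least 5 in at least 5 samples), as did 13236 genes in all. Kidneys of 5 Rragc S74N/+ mice were compared with those of 5 Rragc +/+ mice, each aged 1.5 years. The S74N/+ mice carried 1 edited allele of Rragc in all tissues from conception, which encodes an active form of RagC and also holds silent changes brought in by the repair template, and the other allele was wild type. RagC is a small GTPase that reports nutrient sufficiency to the growth-promoting kinase complex mTORC1. The mice of the study were C57BL/6, and the +/+ controls carried no transgene, Cre or treatment that the labels name. The comparison asks whether raised nutrient signaling in old kidney goes with transcript levels of the kind seen in cellular senescence.

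In senescence, a cell leaves the cell cycle for good while it stays alive. CDK inhibitors hold the cyclin-dependent kinases in check, so that the RB protein stays unphosphorylated and keeps E2F factors from switching on the genes of DNA replication, whereas D-type cyclins with CDK4 or CDK6 drive RB the other way. p53, which is controlled mostly through the stability of its protein, switches on Cdkn1a after DNA damage along with Mdm2, whose product in turn degrades p53. Senescent cells often lose lamin B1, and many secrete cytokines, proteases and growth factor binding proteins.

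The values are normalized counts, that is, read counts at the 3′ end of each mRNA divided by a size factor of the sample. Depth was 4488493 to 5797251 reads in the 8 samples whose reads could be recovered, and the share of normalized counts from the mitochondrial genome lay between 33.8% and 38.04% in the 10 samples. The 4 Y-linked genes examined had reads in all 10 samples. Log2 values were compared with limma, with Benjamini-Hochberg adjustment over all tested genes and a threshold of 0.05. Over all genes, 798 of 13236 (6.03%) passed, 457 higher and 341 lower in Rragc S74N/+ kidneys. With the samples scaled to equal totals the split was 718 higher and 225 lower. The count of calls fell to 368, 311 and 383 without Rragc +/+ replicate 1, 2 and 4, and to 371 without Rragc S74N/+ replicate 5. The labels do not say how the 10 kidneys relate to one another beyond genotype, so p-values measure the spread between these samples.

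Of the 10 genes, 1 passed the threshold, against 6.03% of all tested genes. It was Ccnd1, which fell in Rragc S74N/+ kidneys, against 2.58% of all genes that were lower and 3.45% that were higher past the threshold. Of the 10 genes, 2 had an unadjusted p under 0.05 (Ccnd1 and Cdkn1b, both lower), against 25.4% of all genes. For 1 of the 10, Ccnd1, all samples of a genotype lay apart from those of the other, against 8.16% of all genes. The median log2 fold change of the 10 genes was -0.15 and that of all tested genes -0.01. The share that passed and the share without overlap each rest on the single gene Ccnd1.

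**Figure D1:**
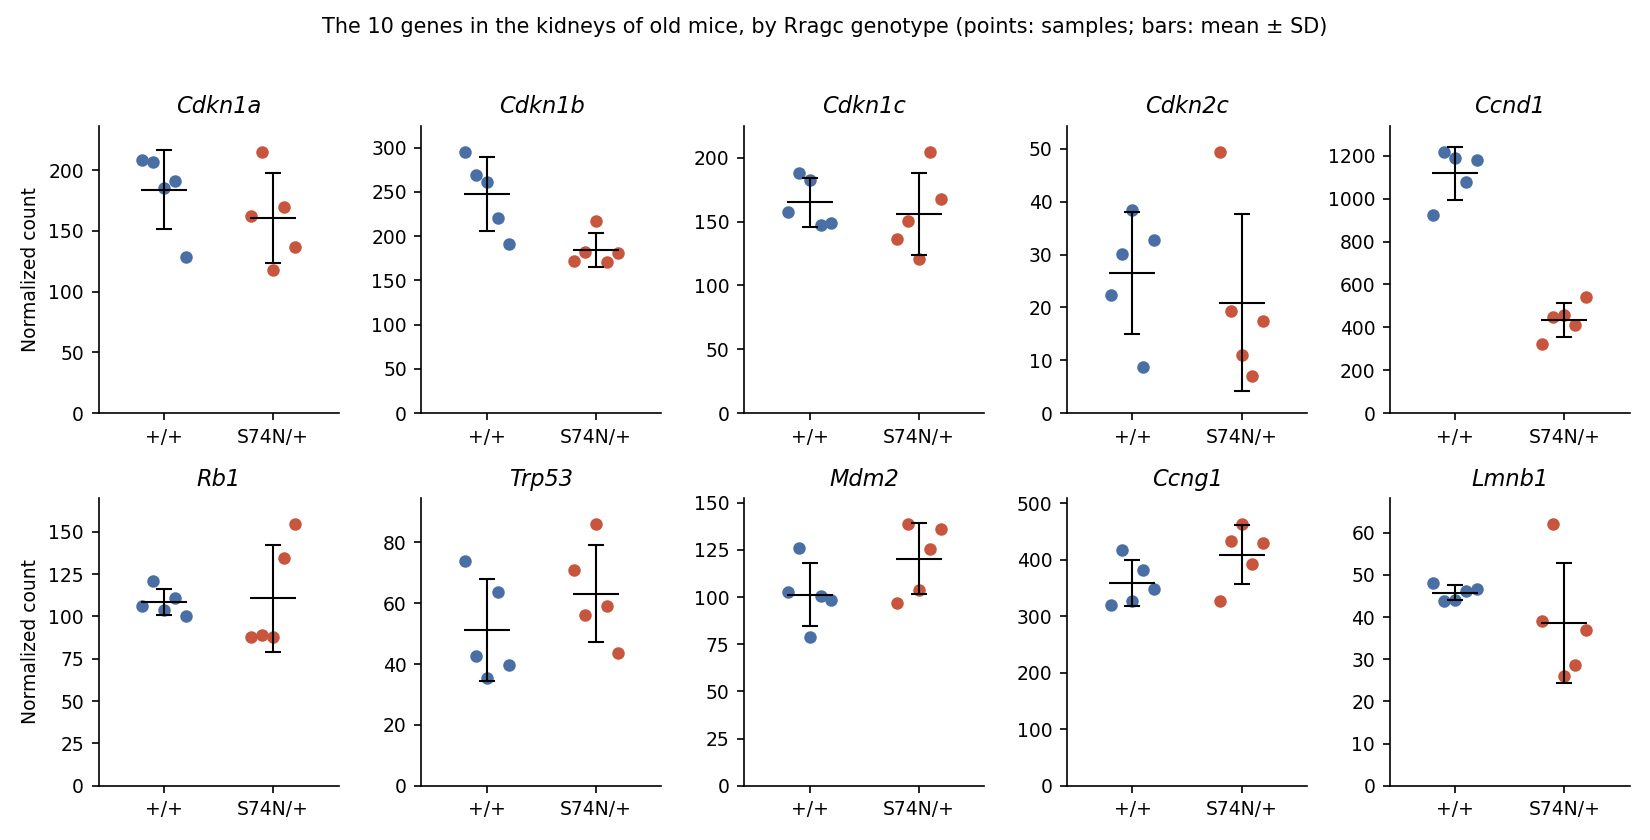
Normalized counts of each of the 10 genes (y axis, starting at 0, with its own scale per panel) in 5 Rragc +/+ (blue) and 5 Rragc S74N/+ (red) kidneys, with the mean and SD as bars. Ccnd1 is the panel in which the points of the groups do not overlap, at 922 to 1218 against 321 to 539 normalized counts.

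Cyclin D1 is the regulatory subunit that turns on CDK4 and CDK6 in G1, and its gene lies on chromosome 7. Ccnd1 measured 922, 1218, 1190.3, 1076 and 1181 normalized counts in Rragc +/+ replicates 1 to 5. In Rragc S74N/+ replicates 1 to 5 it measured 321, 449.7, 457, 410.4 and 539 normalized counts. Every Rragc S74N/+ kidney thus lay below every Rragc +/+ kidney, and 382.6 normalized counts separated the highest of the former from the lowest of the latter. The group means were 1117 ± 122 and 435 ± 79.4 normalized counts (SD, n = 5 per group), which is 2.57-fold lower in Rragc S74N/+ kidneys. On the log2 scale the fold change was -1.37 ± 0.13 (SE), with a 95% interval from -1.66 to -1.08 (limma adjusted p = 2.87e-05). By p-value Ccnd1 took rank 10 among the 13236 genes. Permuting the genotypes over the samples in an exact two-sided test gave p = 0.00794, the smallest that 252 allocations of 10 samples allow. At these levels counting error alone would give a coefficient of variation of 2.99% in Rragc +/+ and 4.79% in Rragc S74N/+ kidneys, and the observed ones were 10.9% and 18.2%. Sample titles fall into numbers under and over 200, which the labels do not name as batches, and the log2 fold change was -1.44 among the former and -1.26 among the latter.

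The 4 tested genes nearest to Ccnd1 in the RefSeq gene order (GRCm38.p6) fell short of the threshold. Before it in chromosome order were Ano1, Bc1 and LTO1, with log2 fold changes of 0.40, -0.63 and 0.16 (limma adjusted p = 0.62, 0.27 and 0.73). Tpcn2, after it, had 0.04 (limma adjusted p = 0.96).

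Kidney holds many cell types, and in bulk tissue fewer cells of a type and less RNA per cell cannot be told apart. The sum of 4 markers of the thick ascending limb and distal tubule moved in the same direction as Ccnd1. It ranged from 12589 to 15904 normalized counts in Rragc +/+ and from 4685 to 9818 in Rragc S74N/+ kidneys, a ratio of 0.508. All 4 markers were in the table, and 3 of them were lower past the threshold. Umod, the urinary protein uromodulin of the thick ascending limb, averaged 5806 and 2119 normalized counts, and the distal sodium chloride transporter Slc12a3 averaged 4056 and 1078. Slc12a1, the sodium potassium chloride transporter of the thick ascending limb, averaged 3130 and 3318. The 6 proximal tubule markers summed to 35287 to 47426 and 36851 to 45462 normalized counts, a ratio of 0.930. Within that list Slc5a2, a glucose transporter of the early proximal tubule, was lower without overlap between groups, at 844.6 and 415 normalized counts on average (log2 fold change -1.05, limma adjusted p = 0.000476). Of the collecting duct markers Slc4a1, the anion exchanger of acid-secreting cells, was lower too, at 119 and 54.6 normalized counts (-1.19, limma adjusted p = 0.00918). The other 3 did not pass: Atp6v1b1, Aqp2 and Aqp3 had log2 fold changes of -0.03, 0.31 and -0.43 (limma adjusted p = 0.92, 0.73 and 0.22). For the remaining lists the ratio of summed markers was 1.01 for collecting duct, 1.03 for endothelium, 1.32 for podocytes, 1.36 for macrophages, 1.59 for fibroblasts, 1.67 for B and plasma cells, and 2.74 for neutrophils. The last 2 lists had 3 of 6 and 2 of 6 markers in the table, and the neutrophil sums reached only 71.3 normalized counts. Sums overlapped between groups for collecting duct, endothelium, fibroblasts, and B and plasma cells. Negative log2 fold changes were found for 2 of 6 macrophage markers, and for 1 of 6 each in fibroblasts, endothelium and podocytes. The endothelial one was Kdr, at 475 and 343 normalized counts on average. Kdr did not overlap between groups and fell short of the threshold (-0.49, limma adjusted p = 0.051). The part of cell composition in the fall of Ccnd1 was not tested.

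The other D-type cyclins serve the same kinases, and neither passed the threshold. Reads from the 3′ end do not scale with transcript length, so the 3 genes were added up. The sum of Ccnd1, Ccnd2 and Ccnd3 was 1800.2 ± 148 normalized counts in Rragc +/+ and 1185 ± 127 in Rragc S74N/+ kidneys (SD, n = 5 per group), and the groups did not overlap. Ccnd1 made up 62.02% ± 3.86 of this sum in Rragc +/+ kidneys and 37.04% ± 7.08 in Rragc S74N/+ kidneys (SD, n = 5 per group). The share of Ccnd2 was 17.4% ± 1.97 and 39.9% ± 11.5 (SD, n = 5 per group), again without overlap. Since Ccnd1 is part of the sum, its fall alone raises the shares of the other genes. The counts of Ccnd2 themselves overlapped between groups, so its share is no separate result. The share of Ccnd3 overlapped between groups, at 20.6% ± 3.04 and 23.1% ± 5.97 (SD, n = 5 per group), while its mean count went from 370 in Rragc +/+ to 272 in Rragc S74N/+ kidneys.

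**Figure D2:**
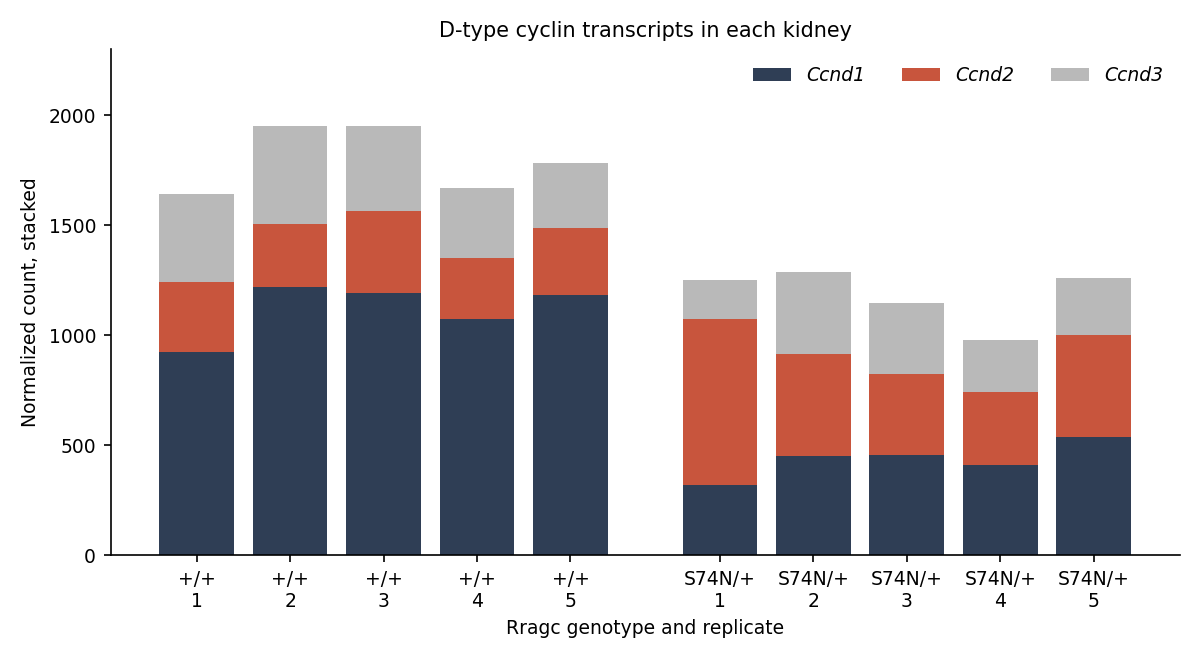
Stacked normalized counts (y axis, starting at 0) of Ccnd1, Ccnd2 and Ccnd3 in each of the 10 kidneys (x axis, by Rragc genotype and replicate). The dark Ccnd1 segment holds 56.1% to 66.2% of the bar in the +/+ samples and 25.6% to 42.8% in the S74N/+ samples.

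Taken singly, Ccnd2 had a fold change of 0.56 ± 0.18 on the log2 scale (SE), with a 95% interval from 0.17 to 0.94, short of the threshold (limma adjusted p = 0.076). Its values were 274 to 375 normalized counts in Rragc +/+ and 334 to 753 in Rragc S74N/+ kidneys, with the highest in replicate 1. Ccnd3 had a log2 change of -0.47 ± 0.18 (SE, limma adjusted p = 0.11). Of the list of G1 cyclins and kinases, 8 of 9 genes were tested and 0 passed with limma, against 6.03% of all genes. Against 25.4% of all genes, 3 of the 8 had an unadjusted p under 0.05. These were Ccnd2 and the kinase gene Cdk6, both higher, and Ccnd3, which was lower. With DESeq2 on the reads of 8 samples, which called 10.6% of all genes, Ccnd2 passed (adjusted p = 0.033).

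CDK inhibitors of the Cip/Kip family bind cyclin-CDK complexes, and Cdkn1a, which encodes p21, is the one most tied to p53 and senescence. Cdkn1a measured 208, 207, 185, 191 and 128 normalized counts in Rragc +/+ replicates 1 to 5. In Rragc S74N/+ replicates 1 to 5 it measured 162, 215, 118, 170.1 and 137 normalized counts. The groups overlapped through their whole range: the highest and the lowest of the 10 values both came from Rragc S74N/+ kidneys, and 4 of these 5 lay below the Rragc +/+ median. Means were 184 ± 32.6 and 160.5 ± 36.9 normalized counts (SD, n = 5 per group). Neither test separated the groups, with a log2 fold change of -0.20 ± 0.18 (SE), an adjusted p of 0.49 with limma and an exact permutation p of 0.29. Its 95% interval ran from -0.58 to 0.17, which is 0.671 to 1.12 times the Rragc +/+ level. The estimate stayed negative in all 25 alternatives, between -0.33 and -0.04.

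**Figure D3:**
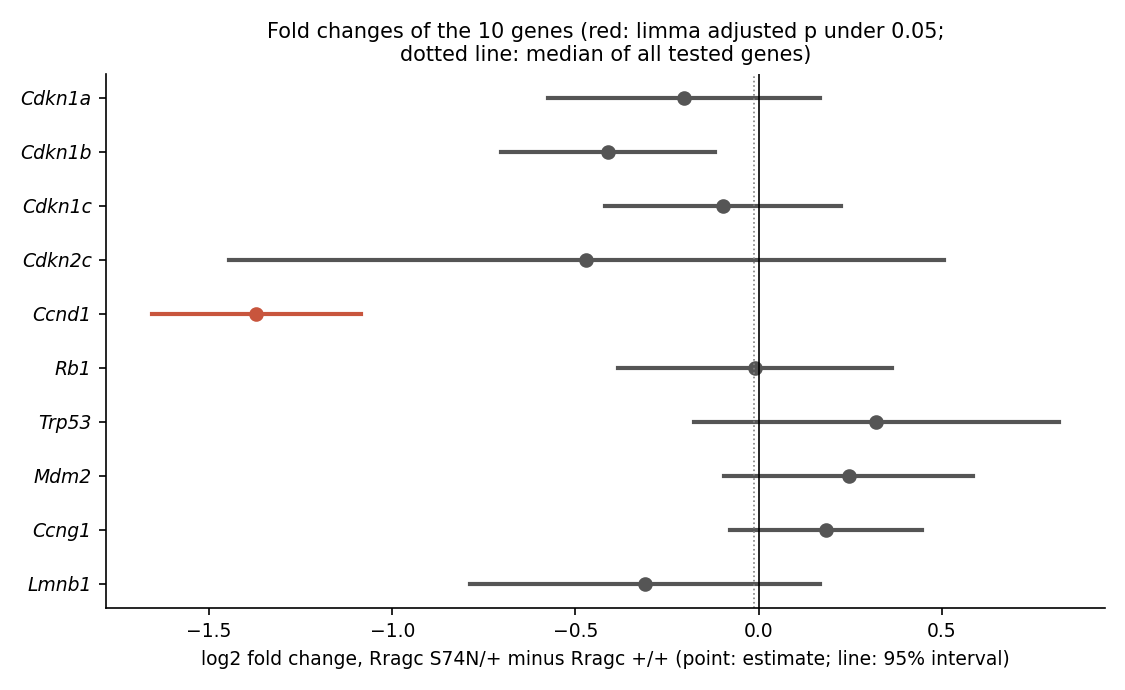
Log2 fold change of each of the 10 genes (x axis, Rragc S74N/+ minus Rragc +/+, points) with its 95% interval (lines), not adjusted for the number of genes. Ccnd1, in red, is the gene past the limma threshold, the interval of Cdkn1b lies below 0 without passing it, and the intervals of the remaining genes cross 0.

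Cdkn1b encodes p27, which holds CDK2 in check in resting cells. It measured 295, 269, 261, 221 and 191 normalized counts in Rragc +/+ replicates 1 to 5, and 172, 182, 217, 171 and 181 in Rragc S74N/+ replicates 1 to 5. Apart from replicate 3 of the latter group, 4 of the 5 Rragc S74N/+ kidneys lay below all Rragc +/+ kidneys, and all 5 lay below the Rragc +/+ median. Means were 248 ± 41.4 and 185 ± 18.8 normalized counts (SD, n = 5 per group). This gave a log2 fold change of -0.41 ± 0.14 (SE), with a 95% interval from -0.70 to -0.12, short of the threshold (limma adjusted p = 0.083). An exact permutation test of this gene alone gave p = 0.016. The call of Cdkn1b turned on the samples used: it passed without Rragc +/+ replicate 5 (-0.50, limma adjusted p = 0.041), where 2 of the 10 genes then passed against 5.87% of all genes.

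On the reads recovered from 8 samples, Cdkn1b passed with edgeR (log2 fold change -0.56, adjusted p = 0.030) and with DESeq2 (-0.57, adjusted p = 0.00776). limma on the same 8 samples gave -0.56 (adjusted p = 0.032). In each of these 3 fits 2 of the 10 genes, Ccnd1 and Cdkn1b, passed, against 6.43%, 10.6% and 6.3% of all genes. The samples that these fits lacked, Rragc +/+ replicate 5 and Rragc S74N/+ replicate 3, held the lowest Cdkn1b value of the first group and the highest of the second. Within the samples with title numbers under 200 the log2 fold change was -0.54, and within those over 200 it was -0.22 (limma adjusted p = 0.17 and 0.56).

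Cdkn1c, which encodes the third family member p57, ranged from 148 to 188 normalized counts in Rragc +/+ and from 121 to 205 in Rragc S74N/+ kidneys. Its log2 fold change was -0.10 ± 0.15 (SE), with a 95% interval from -0.42 to 0.23 (limma adjusted p = 0.73). Cdkn2c, which encodes the CDK4 and CDK6 inhibitor p18, was the least abundant of the 10 genes. It ranged from 8.73 to 38.4 normalized counts in Rragc +/+ and from 7.13 to 49.4 in Rragc S74N/+ kidneys. The coefficient of variation of 80.0% in the latter group was above the 21.9% that counting error would give, and the interval of its log2 fold change of -0.47 ± 0.46 (SE) ran from -1.44 to 0.50 (limma adjusted p = 0.55). Of the further CDK inhibitors Cdkn2a, Cdkn2b, Cdkn2d and Cdkn3, only Cdkn2d was in the table, and the others were not analysed here. Cdkn2d had 13.97 to 24.96 normalized counts in Rragc +/+ and 2.04 to 16.8 in Rragc S74N/+ kidneys, a log2 change of -1.08 ± 0.43 (SE, limma adjusted p = 0.13).

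Rb1, the brake that cyclin D kinases release, ranged from 100.5 to 121 normalized counts in Rragc +/+ and from 87.7 to 154 in Rragc S74N/+ kidneys. The Rragc S74N/+ values fell apart into 3 below and 2 above all Rragc +/+ values, and the means of 108 ± 7.85 and 111 ± 31.6 normalized counts (SD, n = 5 per group) lay close together. Its log2 fold change of -0.01 ± 0.18 (SE) had a 95% interval from -0.38 to 0.36 and changed sign in 11 of 25 alternatives (limma adjusted p = 0.98). Of 12 further genes of the RB family and E2F, 10 were tested and 0 passed with limma, against 6.03% of all genes. Against 25.4% of all genes, 1 of the 10 had an unadjusted p under 0.05. This was Rbl1, which encodes the RB relative p107 and is itself an E2F target. It had 9.61 to 29.1 normalized counts in Rragc +/+ and 28.5 to 46.6 in Rragc S74N/+ kidneys, a log2 change of 0.75 ± 0.29 (SE, limma adjusted p = 0.12). The median of these 10 genes was -0.15. DESeq2 did not call Rbl1 either (adjusted p = 0.14).

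p53 binds DNA as a tetramer at pairs of a decamer half-site. The half-site was searched in the 300 bases around each annotated start (250 before to 50 after) in RefSeq on build GRCm38.p6. Of the 10 genes, 6 had such windows, which were 8 in number because Cdkn1a and Cdkn2c have more than 1 start. The half-site occurred in windows of 4 genes, Cdkn1a, Mdm2, Ccng1 and Trp53, against 9.55% of 27025 genes with a window (8.36% of all 32851 windows). The decamer is its own mirror, so a match counts for both strands. A match of this kind is a description of the letters and no evidence of binding. The stretches are shown because they set the p53 targets beside each other, with the half-site in capitals and 15 flanking bases on each side.
Cdkn1a, chr17:29090891-29090952, plus strand: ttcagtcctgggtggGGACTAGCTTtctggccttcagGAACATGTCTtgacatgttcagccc
Mdm2, chr10:117710920-117710959, minus strand: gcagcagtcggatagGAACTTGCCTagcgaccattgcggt
Ccng1, chr11:40755447-40755486, minus strand: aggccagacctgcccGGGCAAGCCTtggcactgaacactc
Trp53, chr11:69580269-69580308, plus strand: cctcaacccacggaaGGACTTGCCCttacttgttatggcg
Cdkn1a held 2 half-sites, which began 73 and 51 bases before 1 of its 2 starts, and the window of its other start held none. The half-sites of Mdm2 and Ccng1 began 186 and 185 bases before the start, and that of Trp53 75 bases before it. Cdkn1b and Cdkn2c had windows without one. The E-box CACGTG, which is the same on both strands, was found in 1 window each of Trp53 and Cdkn2c against 8.09% of genes with a window (7.15% of all windows).

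The p53 gene itself and both of its other targets had positive log2 fold changes, and none passed the threshold. Trp53 ranged from 35.5 to 73.8 normalized counts in Rragc +/+ and from 43.7 to 86.0 in Rragc S74N/+ kidneys, where all 5 values lay above the Rragc +/+ median. Its log2 fold change was 0.32 ± 0.24 (SE), with a 95% interval from -0.18 to 0.82 (limma adjusted p = 0.41). Mdm2, the ubiquitin ligase that removes p53, had 78.7 to 126 and 97.0 to 139 normalized counts in the 2 groups and a log2 change of 0.25 ± 0.16 (SE, limma adjusted p = 0.36). The interval of Mdm2 ran from -0.09 to 0.58.

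Ccng1 encodes cyclin G1, a p53 target that recruits a phosphatase to Mdm2, and it was the most abundant of the p53 targets among the 10 genes. It measured 320.0, 417, 327, 383 and 348 normalized counts in Rragc +/+ replicates 1 to 5, and 326, 433, 463, 392 and 429 in Rragc S74N/+ replicates 1 to 5. Of the Rragc S74N/+ kidneys 3 lay above all Rragc +/+ kidneys, while replicate 1 lay near the bottom of the Rragc +/+ range. Its log2 fold change of 0.18 ± 0.12 (SE) had a 95% interval from -0.08 to 0.45 (limma adjusted p = 0.37, and exact permutation p = 0.13 on the normalized counts). The 3 targets therefore did not share a sign, with Cdkn1a at -0.20 beside Mdm2 at 0.25 and Ccng1 at 0.18, and the 3 intervals overlap.

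Of 30 further p53 target genes, 26 were tested and 0 passed with limma, against 6.03% of all genes, while 4 had an unadjusted p under 0.05, against 25.4%. Their median log2 fold change was 0.11, with 16 positive and 10 negative. Polk, a DNA polymerase that copies past lesions, had the smallest p, with 34.1 to 52.0 normalized counts in Rragc +/+ and 37.0 to 84.5 in Rragc S74N/+ kidneys and a log2 change of 0.65 ± 0.22 (SE, limma adjusted p = 0.089). Polk passed with DESeq2 on 8 samples (0.81, adjusted p = 0.029) and without Rragc S74N/+ replicate 3 (0.82, limma adjusted p = 0.031). Sfn, which encodes the p53-induced G2 arrest protein 14-3-3 sigma, had 5.24 to 21.9 and 16.5 to 67.1 normalized counts and a log2 fold change of 1.22 (limma adjusted p = 0.096). The 67.1 came from Rragc S74N/+ replicate 1, and the other kidneys of that genotype had 16.5 to 25.3 normalized counts. Sfn passed with edgeR (adjusted p = 0.044) and DESeq2 (adjusted p = 0.00874) on 8 samples, which include that replicate. With limma on the same samples it did not pass (adjusted p = 0.052). The apoptosis genes Bax, Bbc3 and Pmaip1 had log2 fold changes of 0.28, -0.37 and -0.38 (limma adjusted p = 0.58, 0.61 and 0.62). The growth arrest genes Gadd45a, Btg2 and Sesn2 had 0.40, 0.17 and 0.01 (limma adjusted p = 0.28, 0.71 and 0.98).

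Of 18 regulators of p53 and genes of the DNA damage response, 15 were tested and 0 passed with limma, against 6.03% of all genes. Against 25.4% of all genes, 3 of the 15 had an unadjusted p under 0.05, all with positive estimates. These were the kinase genes Atm and Atr and Usp7, a deubiquitinase of Mdm2 and p53. Usp7 ranged from 279 to 347 normalized counts in Rragc +/+ and from 326 to 448 in Rragc S74N/+ kidneys, a log2 change of 0.34 ± 0.12 (SE, limma adjusted p = 0.091). It passed in 5 of 25 alternatives, among them DESeq2 (adjusted p = 0.017) and edgeR (adjusted p = 0.043) on 8 samples. Mdm4, the partner of Mdm2, had a log2 fold change of 0.23, and H2ax, whose protein is phosphorylated at DNA breaks, had -0.66 (limma adjusted p = 0.27 and 0.26). The median of the 15 genes was 0.12.

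**Figure D4:**
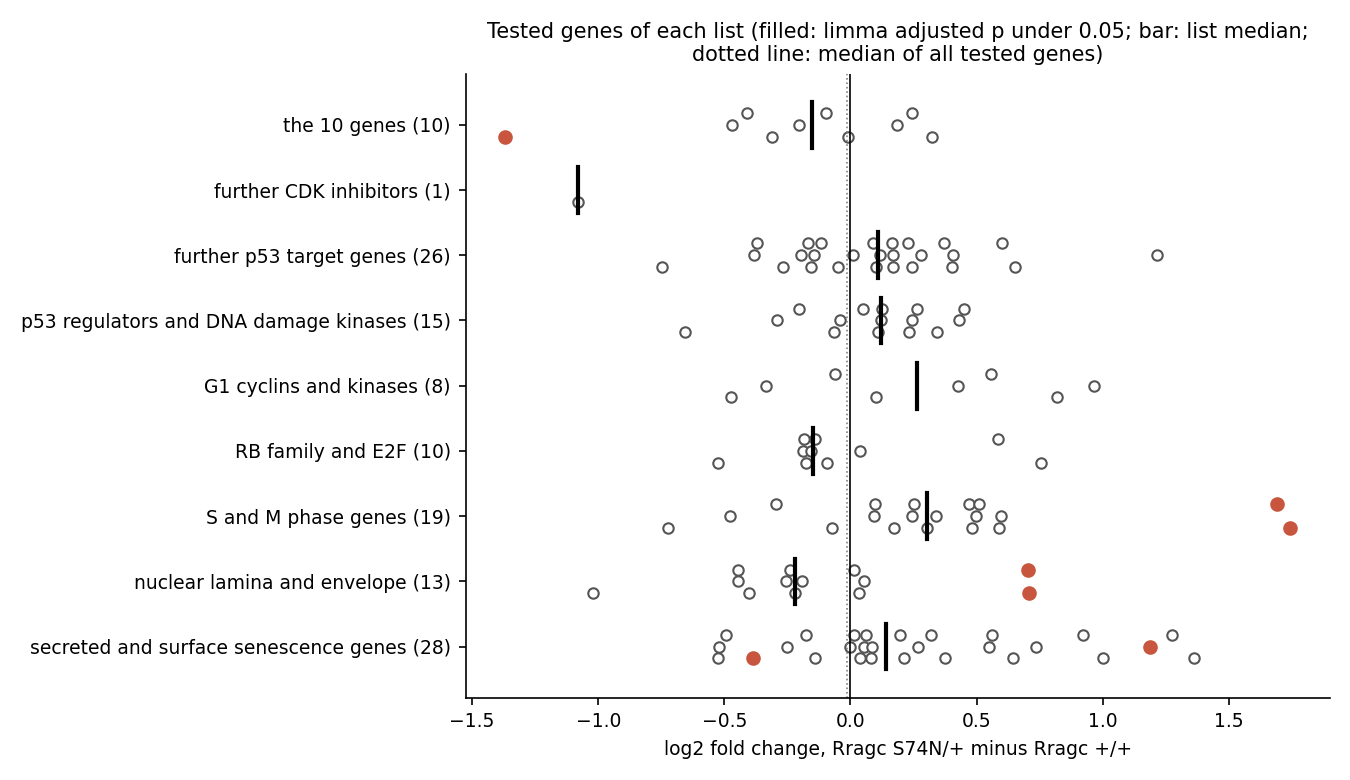
Log2 fold changes (x axis, Rragc S74N/+ minus Rragc +/+) of the tested genes of each list (y axis, number tested in parentheses), with the list median as a black bar, the median of all genes as a dotted line and genes past the limma threshold filled. The filled points are Ccnd1 on the left of the top line, Top2a and Mki67 on the right of the S and M phase line, Syne1 and Syne2 in the lamina line, and Ctsb and Ccl5 in the senescence line.

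Lmnb1 encodes lamin B1, a filament of the nuclear lamina. It measured 48.1, 43.7, 44.2, 46.3 and 46.8 normalized counts in Rragc +/+ replicates 1 to 5, and 39.2, 62.03, 25.99, 28.5 and 36.9 in Rragc S74N/+ replicates 1 to 5. In the latter group 4 kidneys lay below all Rragc +/+ kidneys and replicate 2 lay above all of them. Means were 45.8 ± 1.84 and 38.5 ± 14.3 normalized counts (SD, n = 5 per group). Counting error alone would give a coefficient of variation of 14.8% in Rragc +/+ kidneys, above the 4.03% observed, so those 5 values lay closer together than counting error would give. Its log2 fold change of -0.31 ± 0.23 (SE) had a 95% interval from -0.79 to 0.17 (limma adjusted p = 0.41).

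Among 13 further genes of the lamina and nuclear envelope, all tested, 2 rose (15.4%, against 3.45% of all genes) and 0 fell past the threshold. The median log2 fold change was -0.22, with 5 positive and 8 negative. The 2 were Syne1 and Syne2, which encode nesprins, giant proteins that tie the nucleus to the cytoskeleton. Syne1 ranged from 169.6 to 209 normalized counts in Rragc +/+ and from 254 to 363 in Rragc S74N/+ kidneys, a log2 change of 0.70 ± 0.13 (SE, limma adjusted p = 0.00799). Syne2 ranged from 757 to 1028 and from 1224 to 1742 normalized counts, a log2 change of 0.71 ± 0.12 (SE, limma adjusted p = 0.00430). Neither gene overlapped between groups, and both passed in all 10 fits that left out 1 sample, though not within title numbers under 200 (0.65 and 0.71, limma adjusted p = 0.16 and 0.14). Banf1, which encodes a protein that bridges DNA and the envelope, had the lowest estimate at -1.02 (limma adjusted p = 0.11), and DESeq2 on 8 samples called it lower (-1.21, adjusted p = 0.015). Lmna, which encodes lamins A and C, had a log2 fold change of 0.05, and Lmnb2, which encodes lamin B2, had -0.45 (limma adjusted p = 0.86 and 0.51).

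Genes of S and M phase, which cells use to copy and part their DNA, were read beside the arrest genes. Of 32, 19 were tested. The others, among them Ccna2, Ccnb1, Ccnb2, Cdk1, Plk1, Aurka and Aurkb, were not analysed here. Of the 19, 2 rose (10.5%, against 3.45% of all genes) and 0 fell past the threshold, with a median log2 fold change of 0.30. Mki67, the proliferation antigen Ki-67, measured 15.7, 4.16, 13.4, 8.73 and 13.9 normalized counts in Rragc +/+ replicates 1 to 5 and 44.8, 60.1, 19.0, 20.4 and 52.5 in Rragc S74N/+ replicates 1 to 5. These groups did not overlap, though replicates 3 and 4 of Rragc S74N/+ lay near the Rragc +/+ range. Mki67 had 1.69 ± 0.40 (SE) as its log2 fold change (limma adjusted p = 0.022), and the call was lost without Rragc +/+ replicate 2 (limma adjusted p = 0.057), Rragc +/+ replicate 4 (0.053), Rragc S74N/+ replicate 2 (0.053) or Rragc S74N/+ replicate 5 (0.063). Within title numbers under and over 200 its log2 fold change was 1.83 and 1.49, neither past the threshold (limma adjusted p = 0.16 and 0.098).

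Top2a, the topoisomerase of dividing cells, measured 11.2, 11.4, 19.2, 34.1 and 55.7 normalized counts in Rragc +/+ and 97.0, 98.9, 49.99, 60.1 and 83.6 in Rragc S74N/+ replicates 1 to 5. Only Rragc +/+ replicate 5 reached into the range of the other group. Its fold change on the log2 scale was 1.74 ± 0.37 (SE, limma adjusted p = 0.014), and the gene passed in all 10 fits that left out 1 sample. Among title numbers under 200 the log2 fold change of Top2a was 2.45 (limma adjusted p = 0.024), and among those over 200 it was 0.69 and did not pass (limma adjusted p = 0.23). The eBayes fit without a variance trend lost it narrowly (limma adjusted p = 0.051). The remaining 17 tested genes did not pass, and of all 19 the estimate was positive in 15 and negative in 4. Of the tested subunits of the MCM helicase, which unwinds DNA for replication, Mcm3, Mcm4, Mcm5 and Mcm7 had log2 fold changes of 0.59, 0.60, 0.50 and 0.24, and Mcm2 and Mcm6 had -0.48 and -0.07 (limma adjusted p from 0.20 to 0.91). Pcna, the sliding clamp of replication, had -0.30 (limma adjusted p = 0.36). Leukocyte markers moved with Mki67 and Top2a: 6 of 6 were in the table, their sum was 167 to 224 normalized counts in Rragc +/+ and 321 to 511 in Rragc S74N/+ kidneys (a ratio of 2.08), 2 of them were higher past the threshold, and Cd53 was listed at 0 in 1 Rragc S74N/+ kidney. The part of these cells in the higher Mki67 and Top2a values was not tested.

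**Figure D5:**
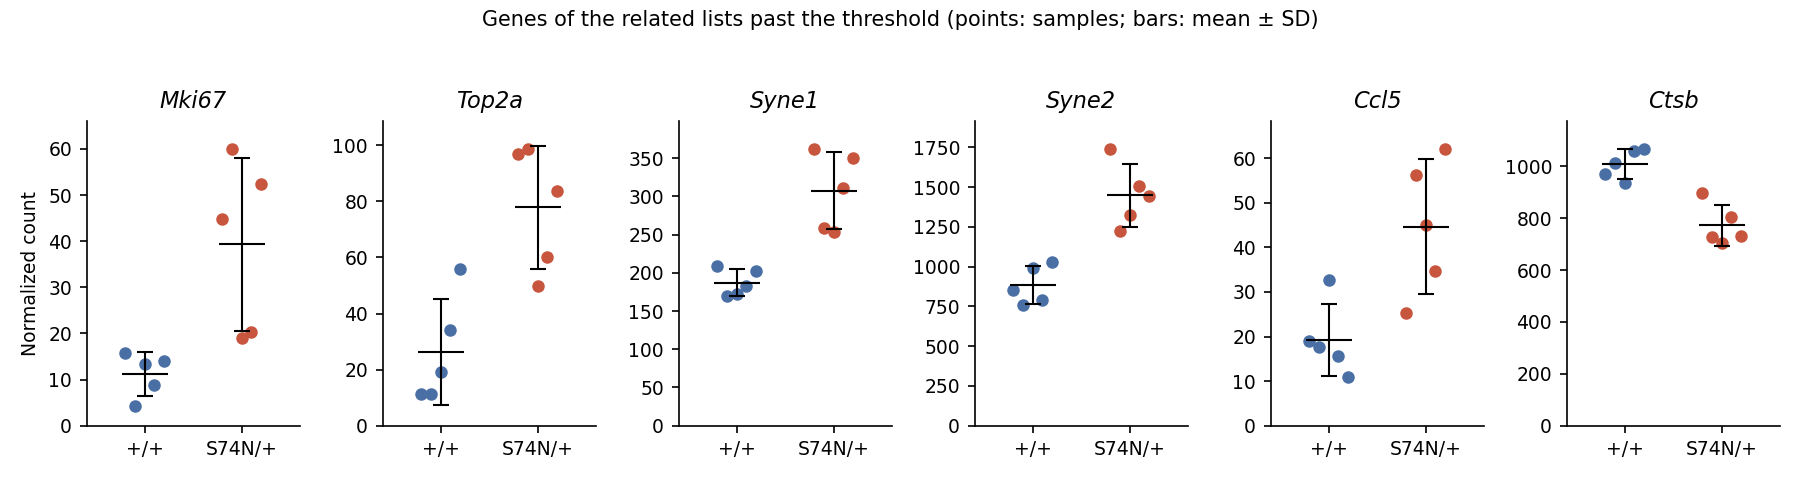
Normalized counts (y axis, starting at 0) of the 6 genes of the related lists that passed the threshold, in 5 Rragc +/+ (blue) and 5 Rragc S74N/+ (red) kidneys, with the mean and SD as bars. Mki67, Syne1, Syne2 and Ctsb show no overlap between groups, while Top2a and Ccl5 overlap by 1 or more samples.

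Secreted and surface genes of senescence were read last. Of 37, 28 were tested, 1 rose and 1 fell past the threshold (7.14% in all, against 6.03% of all genes), and 10 had an unadjusted p under 0.05, against 25.4% of all genes. Of these 10, 5 were positive and 5 negative. The median log2 fold change was 0.14, with 21 of the 28 estimates positive. Ccl5, a chemokine of T cells and other leukocytes, had 10.9 to 32.6 normalized counts in Rragc +/+ and 25.2 to 62.2 in Rragc S74N/+ kidneys, a log2 change of 1.19 ± 0.31 (SE, limma adjusted p = 0.032). Its call was lost in 11 of 24 alternatives, with adjusted p up to 0.26. Ctsb, the lysosomal protease cathepsin B, ranged from 936 to 1069 normalized counts in Rragc +/+ and from 706 to 896 in Rragc S74N/+ kidneys. Its log2 fold change was -0.39 ± 0.10 (SE, limma adjusted p = 0.035), and its call was lost in 14 of 25 alternatives. Gdf15, a stress-induced cytokine, had a log2 fold change of 0.74 and fell short of the threshold (limma adjusted p = 0.076), but passed in each of the 3 fits on 8 samples, with adjusted p of 0.016 with edgeR, 0.000589 with DESeq2 and 0.017 with limma. With DESeq2 on 8 samples the chemokine gene Cxcl10 (1.65, adjusted p = 0.029) and Igfbp7 (-0.60, adjusted p = 0.026) passed as well. Glb1, which encodes the beta-galactosidase that is stained in senescent tissue, had a log2 fold change of 0.01, with a 95% interval from -0.30 to 0.33 (limma adjusted p = 0.97). Markers of T cells, of which 3 of 6 were in the table, summed to 8.95 to 30.2 normalized counts in Rragc +/+ and 30.6 to 65.3 in Rragc S74N/+ kidneys, with Cd3e listed at 0 in 1 Rragc +/+ kidney. Their part in the Ccl5 values was not tested.

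Across the 8 lists, 120 of 155 genes were tested and 6 passed (5 higher and 1 lower), against 6.03% of all genes. Leaving out Rragc +/+ replicate 2 or 4, or Rragc S74N/+ replicate 2 or 5, each left 3 of these lists' genes past the threshold. The lists were written with earlier results of these data in view.

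The genes whose levels followed Cdkn1a and Ccnd1 most closely from kidney to kidney were sought after the mean of each genotype had been subtracted, over 10 samples that share the kit and the scaling. Closest to Cdkn1a were Idh3g, Gm42820, Gm44423, Nol6 and Cstf2t, with Pearson correlations of log2 values from 0.94 to 0.91. Closest to Ccnd1 were Eif3j1, Abhd5, Zfyve9, Dnai4 and Bzw1, from 0.94 to 0.92. None of these 10 genes passed the threshold between genotypes, and with 13236 genes to choose from these values describe the samples only.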

How the data were processed

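Kidneys of 5 Rragc S74N/+ and 5 Rragc +/+ mice were profiled by 3′ mRNA sequencing (QuantSeq, sense strand). Per the labels and the study's methods, reads were checked with FastQC 0.11.7, aligned to GRCm39 with TopHat2 2.0.10, Bowtie 1.0.0 and SAMtools 0.1.19 and counted with HTSeq 0.6.1. The deposited table holds signal values that the authors made by dividing the counts of each sample by its size factor, and genes with low counts are not in it. Duplicate molecules were not marked by identifiers, so counting errors cover sampling of reads only.

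Genes with a value of at least 5 in at least 5 samples were fitted as log2(value + 1) with limma 3.58.1 (R 4.3.3; genotype as the only term, eBayes with trend, Benjamini-Hochberg over 13236 genes, two-sided, threshold 0.05). Fold changes are differences of mean log2 values on this scale, where the added 1 tends to draw those of low genes toward 0. They can differ in either direction from ratios of the group means. Whole reads were recovered in 8 samples (100% of values whole within 1e-06) for edgeR 4.0.16 and DESeq2 1.42.0. The steps of the other 2 columns were too near 1 to be told from whole numbers, so those samples entered no count model. The main limma fit, edgeR and DESeq2 were tested on simulated data with the same dispersion for every gene. The other settings were not. The authors' fold changes were not used.

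The members, lists and tests were chosen with earlier results of these data known. The text names all members, list genes past the threshold or otherwise the one with the smallest p, and the 5 genes most correlated with Cdkn1a and Ccnd1. List genes named beyond this, the marker genes and the neighbours of Ccnd1 were chosen after values were seen. Alternatives used a pseudocount of 0.5 or 5, no filter or a mean of at least 50, 3 scalings, eBayes without trend or robust, the 3 fits on 8 samples, a block for or a split by the number in the sample title, and leaving out each sample. Alternatives for marker sums and for the S and M phase list were added after seeing the data.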

Additional observations from a re-analysis of the deposited data

Results flagged for a closer look

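A search for far-off samples covered 22 genes, the members and some of the list genes, in each genotype, or 44 groups of 5 samples. In 5 groups a sample lay far from the other 4 by Dixon's criterion (gap over range above 0.71). Chance gives about 1 in 20, or 2.2. Other genes named in the text, such as Sfn, were not searched. Among the inhibitors, Cdkn1a had 128 normalized counts in Rragc +/+ replicate 5 against 185 to 208 in the other kidneys of that genotype. Cdkn1b had 217 in Rragc S74N/+ replicate 3 against 171 to 182, and Cdkn2c had 49.4 in Rragc S74N/+ replicate 1 against 7.13 to 19.4. Polk had 52.0 in Rragc +/+ replicate 2 against 34.1 to 35.8. Rbl1 had 9.61 in Rragc +/+ replicate 4 against 24.96 to 29.1.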

How the results depend on the processing

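Ccnd1 kept its direction and its call in all 25 alternatives, with log2 fold changes from -1.45 to -1.26 and adjusted p from 1.19e-11 to 0.012, and Cdkn1a passed in none. The count of members past the threshold rose from 1 to 2 with edgeR, DESeq2 and limma on 8 samples, and was 1 to 2 when single samples were left out. Over all genes, 798 calls became 391 without the variance trend, 1402 with DESeq2, and 311 to 902 when single samples were left out. Among title numbers under 200 they became 46, and among those over 200 they became 617. Of the list genes, 6 calls became 2 without the trend, and 13 of 120 with DESeq2, against 10.6% of all genes in that fit. They became 1 among title numbers under 200 and 7 among those over 200. Leaving out single samples gave 3 to 8 (1 to 2 for S and M phase genes). Rb1 changed sign in 11 alternatives: 0.068, 0.0042 and 0.031 with scaling to equal totals, to equal 75th percentiles and to totals without mitochondrial genes, 0.083, 0.075 and 0.035 with edgeR, DESeq2 and limma on 8 samples, 0.45 among title numbers over 200, and -0.14 to 0.062 when single samples were left out. Cdkn1c changed sign among title numbers over 200, to 0.32. Marker sums kept their direction except where the ratio was near 1. The cause of these shifts was not tested. Both splits by title number held fewer samples than the main fit, and the split over 200 held fewer than the split under 200. Scaling to equal totals moved the median of all genes by 0.08. No paired analysis was possible because the labels carry no replicate numbers. Depth limits Cdkn2c, Cdkn2d and Mki67, whose highest values were 49.4, 24.96 and 60.1 normalized counts.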
